A study of Mus musculus with 33 samples.

Results

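The 21 to 27 kb cluster is a block of guide RNAs (gRNAs) that tile an intergenic stretch upstream of the mouse gene Zfp42, at chr8:43328013-43334012 of the mm10 build. Members were the gRNAs whose interval midpoint lies in that stretch, 21 to 27 kb upstream of the Zfp42 5' end at position 43307009. There were 676 of them, 17.3% of the 3908 gRNAs of the Zfp42 library that have a genomic position. The library left gaps on both sides of the cluster, 3.99 kb to the next gRNA on the Zfp42 side and 18.0 kb on the far side.

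The cells were mouse embryonic stem cells, pluripotent cells grown here in serum with LIF, a GSK-3 inhibitor and UO126, an inhibitor of MEK, and were mutated by CRISPR with a pool of gRNAs. In all Zfp42 libraries, controls included, the cells carried GFP in place of sequence at the Zfp42 transcription start site and a placeholder guide at the ROSA26 locus that the library gRNAs were meant to replace. Genomic DNA was taken from the bulk population after gRNA electroporation and from GFP-medium and GFP-negative cells, with 4 replicates of each, 12 libraries in all. The comparison asks whether gRNAs of the cluster take a larger share of the cells with reduced or no GFP than of all cells. The labels name no clone, gate or number of sorted cells and do not call the replicates separate cultures. The p-values therefore reflect the variation among these libraries, part or all of which may be technical.

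Zfp42, also called Rex1, encodes a zinc finger protein that is a widely used marker of undifferentiated embryonic stem cells. Transcription of such genes depends on the promoter and on enhancers, stretches of DNA that bind transcription factors and can lie many kilobases away. A gRNA directs Cas9 to a short matching site, where repair of the break leaves small insertions or deletions. In a tiling screen of this kind the gRNA is the tag of the mutated site, and its share of the counts in a sorted population is set against its share in bulk.

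Without the placeholder, totals ran from 39096 to 82959 counts for bulk, from 121455 to 268197 for GFP-medium and from 252023 to 487732 for GFP-negative libraries. Counts are PCR reads without molecular identifiers, so their precision covers counting error only. The 10 GFP-targeting gRNAs, the positive controls, took 0.589% of bulk, 0.384% of GFP-medium and 23.4% of GFP-negative counts on average. The placeholder took 1.22% and 1.09% of all counts in bulk replicates 1 and 2 and 22.5% and 23.5% in bulk replicates 3 and 4, so values are also given within these pairs of replicates.

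No RefSeq gene of the matching assembly overlapped the cluster. The nearest gene below it was Zfp42 itself, at chr8:43295067-43307009, and the next one above was Adam26b, a member of the ADAM metallopeptidase family, 186 kb away. The members were dense: 607 of 675 neighbouring pairs (89.9%) overlapped, with a median spacing of 4.5 bp between midpoints and a largest gap of 152.5 bp. Overlapping members share target sequence and are not independent replicates of a mutation.

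Of the 676 members, 291 had a count in at least 1 library and 385 had none in any of the 12. All 291 counted members were seen in bulk. The length of the listed interval parted them: 124 of 124 members with a 22-bp interval were counted, against 167 of 552 (30.3%) with a 23-bp interval. The same held for the other positioned gRNAs of the library, with 589 of 592 (99.5%) and 829 of 2640 (31.4%) counted.

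Among the 23-bp members, 35 shared the start or the end of their interval with a 22-bp member, and 35 of 35 of these were counted. Of the 517 that shared neither end, 132 (25.5%) were counted. Elsewhere in the library the values were 129 of 129 and 700 of 2511 (27.9%). In bulk, both members of such a pair were counted in 129 of 140 cases (35 pairs in 4 libraries), 1 of them in 9 and neither in 2. In GFP-medium both were counted in 26 cases, 1 in 52 and neither in 62, and in GFP-negative the numbers were 12, 19 and 109. Near-identical members that bulk held together were thus often counted apart in the sorted populations.

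The cluster took a smaller share of the counts in the sorted populations than in bulk. Its share was 14.8%, 16.3%, 15.8% and 15.7% in bulk replicates 1 to 4, a mean of 15.7% ± 0.615 (SD, n = 4). In GFP-medium it was 3.49%, 6.22%, 9.84% and 6.49%, a mean of 6.51% ± 2.60 (SD, n = 4). In GFP-negative it was 4.29%, 5.27%, 4.54% and 5.57%, a mean of 4.92% ± 0.601 (SD, n = 4). Every bulk library lay above all 8 sorted libraries, while the GFP-medium and GFP-negative ranges overlapped.

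The log2 ratio of mean shares was -1.67 for GFP-negative over bulk, -1.27 for GFP-medium over bulk and -0.40 for GFP-negative over GFP-medium. These sums are given without a test. The first 2 ratios share the bulk libraries. Since a share depends on all other gRNAs, fewer cells with cluster gRNAs and more cells with others cannot be told apart. With the GFP-targeting gRNAs left out of the totals, the cluster took 5.46% to 7.33% of GFP-negative counts, a mean of 6.43% ± 0.778 (SD, n = 4), and the ratios were -1.29, -1.27 and -0.02. The lower share in GFP-negative than in GFP-medium was thus absent without those controls in the total.

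Within replicates 1 and 2 the 3 log2 ratios were -1.70, -1.68 and -0.02, and within replicates 3 and 4 they were -1.64, -0.95 and -0.69. Both sorted populations were below bulk in each pair of replicates.

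Fewer members were counted in the sorted libraries, although those were sequenced more deeply. Bulk libraries held 286, 274, 270 and 267 members with at least 1 count. GFP-medium libraries held 48, 145, 93 and 84, and GFP-negative libraries 31, 61, 44 and 47. After thinning to the smallest library total of 39096, bulk libraries held 266 to 279 members, GFP-medium libraries 33.4 to 96.9 and GFP-negative libraries 22.3 to 39.5. As a share of members, bulk libraries counted 39.5% to 42.3%, GFP-medium libraries 7.10% to 21.4% and GFP-negative libraries 4.59% to 9.02%. The same shares over all positioned gRNAs were 40.7% to 43.0%, 11.98% to 24.3% and 8.34% to 13.6%.

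The counts that remained in the sorted populations came from a handful of members. In bulk the 10 most counted members held 11.4% to 18.1% of the cluster's counts. In GFP-medium they held 60.9% to 85.3%, and in GFP-negative 80.2% to 91.7%. Counts of the whole library were concentrated too. The fewest gRNAs that together at least matched all the rest in counts numbered 311, 354, 351 and 357 for bulk replicates 1 to 4. For the GFP-medium replicates these sets held 19, 59, 62 and 43 gRNAs, for the GFP-negative ones 24, 24, 30 and 36. Such concentration was thus not particular to the cluster. The most counted member was a different one in each of the 8 sorted libraries. In GFP-negative it was chr8:43328678-43328699 with 2792 counts in replicate 1, chr8:43329167-43329188 with 4750 in replicate 2, chr8:43332324-43332346 with 2134 in replicate 3 and chr8:43329735-43329757 with 4005 in replicate 4. In GFP-medium it was chr8:43328868-43328889 with 1403, chr8:43328282-43328303 with 2521, chr8:43332190-43332212 with 1378 and chr8:43331554-43331575 with 1063. Without the most counted member of each library, the log2 ratios of the cluster's share were -2.01, -1.45 and -0.56.

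Few members came back in all replicates of a sorted population. Of the 291 counted members, 250 were counted in all 4 bulk libraries. In GFP-medium 8 were counted in all 4 libraries, 39 in 3, 64 in 2, 93 in 1 and 87 in none. In GFP-negative 1 was counted in all 4 libraries, 12 in 3, 30 in 2, 83 in 1 and 165 in none. Among the 1418 counted gRNAs outside the cluster, 181 were counted in all 4 GFP-medium and 85 in all 4 GFP-negative libraries.

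Most members counted in GFP-negative were also counted in GFP-medium. There were 115 members counted in both sorted populations, 11 in GFP-negative and not in GFP-medium, 89 in GFP-medium and not in GFP-negative, and 76 in bulk alone. Detection followed abundance in bulk: of the 97 least abundant counted members 20 (20.6%) were seen in GFP-negative, of the middle 97 it was 37 (38.1%), and of the 97 most abundant it was 69 (71.1%). For GFP-medium the numbers were 38 (39.2%), 73 (75.3%) and 93 (95.9%). These are descriptions across gRNAs, which share their libraries. They were made for members only and are not set beside the rest of the library.

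Summed over 1-kb tiles counted from the lower edge, all 6 tiles had a lower mean share in both sorted populations than in bulk. Only 1 of these differences passed the threshold of an adjusted p under 0.05. The test was edgeR's quasi-likelihood test over all 41 tiles of the library, scaled by library totals, with Benjamini-Hochberg adjustment. In GFP-negative against bulk, 5 of the 41 tiles (12.2%) were lower and 3 (7.32%) higher; of the 6 tiles of the cluster 1 was lower and 0 higher. In GFP-medium against bulk, 0 of the 41 (0%) were lower and 3 (7.32%) higher, and 0 of the cluster's 6 passed. In GFP-negative against GFP-medium, 8 of the 41 (19.5%) were lower and 2 (4.88%) higher, again with 0 of the 6.

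The median log2 fold change over the 6 tiles was -1.65, beside -0.94 over all 41, in GFP-negative against bulk. In GFP-medium against bulk the medians were -1.29 and -0.33, and in GFP-negative against GFP-medium -0.34 and -0.38. With the replicate number as a block, 5 of the 6 tiles and 17 of all 41 were lower in GFP-negative than in bulk. In GFP-medium against bulk 2 of the 6 and 3 of the 41 were lower. Between the sorted populations 0 of the 6 differed, beside 10 of the 41 lower and 2 higher in GFP-negative. Replicates with the same number varied together, so the blocked values are given beside the results they change.

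The lowest tile, chr8:43328013-43329012, held 117 members, 53 of them counted. Its share was 2.55%, 2.37%, 2.10% and 2.47% in bulk, 1.33%, 1.68%, 0.360% and 0.512% in GFP-medium and 1.35%, 0.975%, 0.207% and 0.680% in GFP-negative. No sorted library reached the bulk range. The log2 fold change in GFP-negative against bulk was -1.56 with an edgeR adjusted p of 0.0988, and 0.0338 with the replicate block.

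The tile at chr8:43329013-43330012 had the highest bulk share of the 6 and held 127 members, 65 of them counted. Its share was 2.90%, 4.09%, 3.61% and 3.42% in bulk, 0.565%, 2.77%, 0.843% and 1.51% in GFP-medium and 1.03%, 2.24%, 0.362% and 2.41% in GFP-negative. Both sorted populations lay below bulk in every library. The log2 fold change in GFP-negative against bulk was -1.22, with an edgeR adjusted p of 0.135, and 0.0401 with the block.

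At chr8:43330013-43331012, where 50 of 115 members were counted, the sorted libraries fell into the pairs of replicates. The share was 2.52%, 2.82%, 2.42% and 2.70% in bulk, 0.138%, 0.122%, 1.85% and 1.33% in GFP-medium and 0.0144%, 0.0474%, 1.06% and 0.643% in GFP-negative. Replicates 1 and 2 were below replicates 3 and 4 in both sorted populations, and all were below bulk. The log2 fold change in GFP-negative against bulk was -2.56, the largest of the 6 tiles, with an edgeR adjusted p of 0.0988. With the block it was -4.46 with an adjusted p of 0.00181, and in GFP-medium against bulk -3.17 with 0.0298.

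The tile that passed the test without the block was chr8:43331013-43332012, with 39 of 92 members counted. Its share was 2.48%, 3.39%, 3.11% and 2.97% in bulk, 1.20%, 0.658%, 2.85% and 1.73% in GFP-medium and 0.697%, 0.907%, 0.753% and 0.0317% in GFP-negative. All 4 GFP-negative libraries lay below all 4 bulk libraries, and GFP-medium replicate 3 reached into the bulk range. The tile fell by 2.32 on the log2 scale in GFP-negative against bulk, with an edgeR adjusted p of 0.0284. That call was lost when bulk replicate 2, 3 or 4 or GFP-negative replicate 3 was left out, within replicates 3 and 4 alone, and under 2 other scalings, TMM and totals without the GFP-targeting gRNAs. Against GFP-medium, the GFP-negative value was -1.43 with an edgeR adjusted p of 0.175. With the block the value in GFP-negative against bulk was -2.49 with an adjusted p of 0.0106. Under the block 5 of the 6 tiles passed in that comparison, so this tile did not stand apart there.

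In the tile at chr8:43332013-43333012, 37 of 109 members were counted. The share was 2.35%, 2.13%, 2.91% and 2.43% in bulk, 0.195%, 0.405%, 3.68% and 1.26% in GFP-medium and 0.942%, 0.174%, 1.51% and 1.58% in GFP-negative. GFP-medium replicate 3 was above every bulk library. That library owed it to a pair of members described further on. The log2 fold change in GFP-negative against bulk was -1.22 with an edgeR adjusted p of 0.202, and 0.0477 with the block.

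The uppermost tile, chr8:43333013-43334012, had the smallest share of bulk, with 47 of 116 members counted. It took 2.01%, 1.49%, 1.67% and 1.73% of bulk, 0.0514%, 0.575%, 0.263% and 0.149% of GFP-medium and 0.252%, 0.928%, 0.644% and 0.229% of GFP-negative counts. All 8 sorted libraries were below the bulk range. Its log2 fold change in GFP-medium against bulk was -2.73, the largest of the 6 tiles in that comparison, with an edgeR adjusted p of 0.0557, and -3.27 with 0.0312 under the block. In GFP-negative against bulk the value was -1.75 with an adjusted p of 0.135, and the block left it above the threshold at 0.0789.

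At the level of single gRNAs, 222 members had enough counts to be tested among 1342 gRNAs of the library. The filter keeps a gRNA that is well counted in 1 population, so most tested members passed through bulk, and counts over them describe the tested members alone. In GFP-negative against bulk 130 members were lower and 0 higher (edgeR's quasi-likelihood test with TMM scaling, adjusted p under 0.05 over all 1342). Over all tested gRNAs 44.6% were lower and 0.596% higher. At an unadjusted p under 0.05 the members numbered 140 lower and 0 higher, beside 637 and 11 of all 1342. DESeq2 called 112 members lower and 1 higher, beside 524 and 58 of all 1342. With limma-voom it was 58 and 0, beside 271 and 9. The 130 make 58.6% of the tested members.

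In GFP-medium against bulk 57 members were lower and 0 higher, 25.7% of those tested, against a background of 19.7% lower and 0% higher. At an unadjusted p under 0.05 there were 82 lower and 0 higher, beside 384 and 3 of all 1342. With DESeq2 there were 61 and 0, beside 286 and 33 of all 1342. With limma-voom there were 28 and 0, beside 119 and 0. The replicate block raised the count of lower members to 89, beside 391 of all 1342. Within replicates 3 and 4 alone it was 0, beside 0 of all 1321 tested.

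Between the sorted populations, 62 members were lower and 4 higher in GFP-negative than in GFP-medium, with 21.9% and 3.65% of all tested gRNAs as the background. With the replicate block 0 members differed in either direction, as did 0 of all 1342 gRNAs. Without GFP-negative replicate 1 it was also 0 of all 1466 tested. A fit of these populations without bulk tested 375 gRNAs, 20 of them members, and 0 of either were lower. Leaving out GFP-medium replicate 2 left 36 lower, beside 189 of all 1459. DESeq2 called 51 members lower and 8 higher, beside 252 and 45 of all gRNAs. With limma-voom the numbers were 91 and 0, beside 412 and 15.

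Most calls rested on gRNAs that a sorted population did not hold at all. Among members called lower in GFP-negative than in bulk, 101 of 130 (77.7%) were at 0 in all 4 GFP-negative libraries. For GFP-medium it was 35 of 57 (61.4%), and for GFP-negative against GFP-medium 52 of 62 (83.9%). These shares were not computed over all called gRNAs, so they describe the members alone. Among counted gRNAs, 56.7% of members and 43.2% of the others with a position had no GFP-negative count. Without a GFP-medium count it was 29.9% and 25.5%. Fitted fold changes of members without a count in a sorted population depend on the fit's small added count. The median over the tested members was -7.45 in GFP-negative against bulk, beside -4.06 over all tested gRNAs. With each population that had no count set to 3 counts per library, the medians of the plain log2 ratio of mean CPM, counts scaled to a common library total, were -5.13 and -4.02. In GFP-medium against bulk the fitted medians were -2.89 and -1.25, and the plain ones -3.39 and -1.87. The mean log2 TMM factor of bulk less that of GFP-negative was 0.52, and bulk less GFP-medium was 0.67. GFP-medium less GFP-negative was -0.15. Fold changes of single gRNAs moved by differing amounts between library totals and TMM. With library totals the medians in GFP-negative against bulk were -8.05 over the tested members and -4.97 over all tested gRNAs.

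By complete separation of the libraries in CPM, 195 members (28.8%) lay below all bulk libraries in all 4 GFP-negative libraries, beside 22.6% of the whole library, and 150 (22.2%) in all 4 GFP-medium libraries, beside 17.6%. In the opposite direction 0 members separated from bulk in GFP-negative, where the background was 0.408%, and 0 in GFP-medium, where it was 0.255%. Between the sorted populations 1 member separated below (0.148%, beside 0.536%) and 0 above, beside 0.383%.

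The members named here were the most abundant in bulk among those called and those highest in mean CPM per tile and sorted population. Also named were the most abundant in bulk of all members, and those at the edges. Among the 6 most abundant members called lower in GFP-negative than in bulk, 3 had no GFP-negative count. The member chr8:43331791-43331813, in the tile that passed, had 209, 172, 24 and 73 counts in bulk, 115, 322, 50 and 0 in GFP-medium and 0 in each GFP-negative library. Its level was 1928 ± 1092 CPM in bulk and 539 ± 498 CPM in GFP-medium (SD, n = 4). It was retained in 3 GFP-medium libraries and was at least 190.6-fold lower in GFP-negative than in bulk (edgeR adjusted p 0.00525). Bounds of this kind, here and below, cover the counting of reads only. They leave out the spread between libraries, where chr8:43328678-43328699 had 2792, 0, 0 and 0 counts in GFP-negative.

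The member chr8:43330566-43330587 had 128, 151, 83 and 39 counts in bulk, 0, 11, 43 and 1 in GFP-medium and 0 in each GFP-negative library. It was at least 165.6-fold lower in GFP-negative than in bulk (edgeR adjusted p 0.00525). Its neighbour chr8:43330566-43330588, with the same start and a longer interval, had 129, 74, 61 and 26 counts in bulk and 0 in all 8 sorted libraries. That neighbour was at least 122.3-fold lower in GFP-negative and at least 70.4-fold lower in GFP-medium than in bulk, the latter with an edgeR adjusted p of 0.013. Both members of the pair were thus well counted in each bulk library, and 1 of them was still counted in GFP-medium.

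The member chr8:43331333-43331355 had 98, 95, 79 and 46 counts in bulk, 0, 4, 1 and 0 in GFP-medium and 0 in each GFP-negative library, at least 139.6-fold lower in GFP-negative than in bulk (edgeR adjusted p 0.00434). Its lowest bulk library was far above its highest sorted library. These 3 calls in GFP-negative held when any single library was left out, and were lost within replicates 3 and 4 alone, where 2 libraries face 2. Within replicates 1 and 2 alone the first 2 were lost too (edgeR adjusted p 0.0888 and 0.0662) and that of chr8:43331333-43331355 was kept (0.0488).

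The other 3 of these 6 had a few GFP-negative counts. The member chr8:43330293-43330315 had 223, 137, 40 and 37 counts in bulk and 3 in all of GFP-negative, and fell by 8.57 on the log2 scale (edgeR adjusted p 0.017). The member chr8:43331036-43331057 had 89, 162, 33 and 63 in bulk against 0, 3, 1 and 0 in GFP-negative, and fell by 7.93 (edgeR adjusted p 0.0204). For chr8:43329406-43329427, with 197, 124, 70 and 42 in bulk, 0, 1, 407 and 179 in GFP-medium and 0, 4, 0 and 0 in GFP-negative, the value was -8.27 (edgeR adjusted p 0.0244). The first of these calls was lost without bulk replicate 2, 3 or 4. The second was lost without any 1 bulk library or without GFP-negative replicate 1 or 4, and the third without any 1 bulk library or without GFP-negative replicate 1, 3 or 4.

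Of the 6 most abundant members called lower in GFP-medium than in bulk, 3 had no GFP-medium count. Besides chr8:43330566-43330588 these were chr8:43332866-43332887, with 34, 120, 49 and 42 counts in bulk and 0, 21, 0 and 3 in GFP-negative, and chr8:43332808-43332830, with 59, 9, 95 and 33 in bulk and 0, 0, 1 and 0 in GFP-negative. They were at least 59.4-fold and at least 57.6-fold lower in GFP-medium than in bulk (edgeR adjusted p 0.0122 and 0.00932). Leaving out any single library kept these 3 calls. They were lost within replicates 3 and 4 alone, and with limma-voom for the last 2. Within replicates 1 and 2 alone those of chr8:43330566-43330588 and chr8:43332866-43332887 were lost too (edgeR adjusted p 0.0944 and 0.0730), and that of chr8:43332808-43332830 was kept (0.0334). The others, chr8:43330264-43330286, chr8:43333764-43333786 and chr8:43330570-43330592, held 1, 3 and 3 counts in all of GFP-medium and had edgeR adjusted p-values of 0.0278, 0.042 and 0.0334. Each of those calls was lost when any single bulk library or GFP-medium replicate 1 was left out. That of chr8:43333764-43333786 was also lost without GFP-medium replicate 3 or 4. All 3 were lost within either pair of replicates alone, and at least the first and last with limma-voom.

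The 4 members called higher in GFP-negative than in GFP-medium each owed it to 1 GFP-negative library. They were chr8:43328800-43328822 with 356 counts and chr8:43328830-43328852 with 59, both in replicate 4, chr8:43329776-43329798 with 95 in replicate 2, and chr8:43331629-43331650 with 120 in replicate 3. In the other GFP-negative libraries their counts were 0, apart from 1 count of the last in replicate 2. The edgeR adjusted p-values were 0.0356, 0.0426, 0.045 and 0.0253, and with the replicate block 0.304, 0.348, 0.441 and 0.234.

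Among the members called lower in GFP-negative than in GFP-medium, chr8:43331554-43331575 held the most counts. It had 39, 182, 44 and 60 in bulk, 60, 495, 0 and 1063 in GFP-medium and 0 in each GFP-negative library. It was present in 3 of 4 GFP-medium libraries and was at least 229.5-fold lower in GFP-negative than in GFP-medium (edgeR adjusted p 0.0253), a call lost with the block. It lies in the tile that passed and was at least 132.0-fold lower in GFP-negative than in bulk. Of the others, chr8:43328784-43328806 had 535, 25, 0 and 15 counts in GFP-medium, mostly from replicate 1, and chr8:43332809-43332830 had 0, 2, 148 and 3, mostly from replicate 3.

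The members most counted in GFP-negative differed from library to library, and none of them was called higher than bulk. The member chr8:43329735-43329757, 22.7 kb upstream of the Zfp42 5' end, was the 1 member counted in all 4 GFP-negative libraries. It had 112, 190, 86 and 33 counts in bulk, 1, 704, 203 and 596 in GFP-medium and 1831, 3442, 6 and 4005 in GFP-negative. Its level was 1710 ± 622 CPM in bulk and 7354 ± 6520 CPM in GFP-negative (SD, n = 4). GFP-negative replicates 1, 2 and 4 were above every bulk library and replicate 3 was below them all. The log2 fold change of 2.69 did not pass (edgeR adjusted p 0.333).

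The member chr8:43332324-43332346 had 155, 91, 81 and 43 counts in bulk, 0, 75, 36 and 11 in GFP-medium and 0, 534, 2134 and 3379 in GFP-negative. Its GFP-negative level of 5733 ± 6339 CPM overlapped the bulk level of 1612 ± 630 CPM (SD, n = 4), with a log2 fold change of 2.13 (edgeR adjusted p 0.498). The member with the same end and a start 1 bp higher, chr8:43332325-43332346, had 0, 39, 1146 and 18 counts in GFP-medium and 0, 1, 38 and 16 in GFP-negative. In replicate 3 these 2 gRNAs, whose intervals differ by 1 bp, had their high counts in different sorted populations.

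In the other tiles, members were ranked by mean CPM in GFP-negative. The highest were chr8:43328678-43328699, with 2792 counts in replicate 1 and 0 elsewhere, and chr8:43330114-43330135, with 0, 2, 1497 and 1401. They were joined by chr8:43331223-43331245, with 682, 1745, 0 and 0, and chr8:43333352-43333374, with 0, 972, 519 and 86. Each was at or near 0 in at least 1 GFP-negative library. By summed counts the lowest tile was led by chr8:43328044-43328066 and the uppermost by chr8:43333319-43333340. The presence of chr8:43330114-43330135 in replicates 3 and 4 and its near absence in replicates 1 and 2 went with the split of its tile. Its counts are part of that tile's sum, so this is not a separate observation.

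GFP-medium showed the same unevenness. The most counted member of each tile there was chr8:43328282-43328303 with 0, 2521, 335 and 0 counts, chr8:43329592-43329613 with 0, 1764, 0 and 945, and chr8:43330604-43330626 with 0, 1, 819 and 485. Further up the cluster it was chr8:43331554-43331575, given above, chr8:43332190-43332212 with 0, 154, 1378 and 0, and chr8:43333709-43333731 with 63, 830, 0 and 47. Of these, chr8:43330604-43330626, chr8:43331554-43331575 and chr8:43332190-43332212 had no GFP-negative count. In GFP-medium replicate 3, chr8:43332190-43332212 and chr8:43332325-43332346 were the pair behind the high share of their tile.

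Some members were shared between the sorted populations. This overlap, too, was counted for members only. Of the GFP-negative members of replicates 1 to 4, 17 of 31, 47 of 61, 31 of 44 and 28 of 47 were also counted in the GFP-medium library of the same number. As a share of the GFP-negative members this was 54.8% to 77.0%, and for libraries of different numbers 18.2% to 72.7%, so the ranges overlapped. GFP-medium replicate 2, which held the most members, shared 64.5% of GFP-negative replicate 1 and 72.7% of replicate 3, more than the libraries of the same number did, and the same 59.6% of replicate 4. As a share of the GFP-medium members the values were 32.4% to 35.4% for the same number and 12.9% to 31.2% for different numbers.

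The members most abundant in bulk were chr8:43333715-43333736 at 1962 ± 1369 CPM, chr8:43331791-43331813 and chr8:43331333-43331354 at 1897 ± 541 CPM (SD, n = 4). At the lower edge, the first 2 members inside, chr8:43328013-43328035 and chr8:43328014-43328036, had 9, 0, 0 and 1 and 3, 15, 2 and 5 counts in bulk. The last 2 inside the upper edge, chr8:43333986-43334008 and chr8:43333990-43334012, had no count in any library. The nearest gRNAs outside were chr8:43324000-43324022 and chr8:43323999-43324020 below and chr8:43352010-43352032 and chr8:43352012-43352033 above, so no member lay close to a neighbour beyond the edge.

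Set beside other positions of the library, the cluster differed in the GFP-medium population from the stretch nearer to Zfp42. The 442 gRNAs 13 to 17 kb upstream took 10.6% ± 0.710 of bulk, 22.5% ± 7.28 of GFP-medium and 4.65% ± 1.59 of GFP-negative counts (SD, n = 4), log2 ratios of 1.09 for GFP-medium and -1.19 for GFP-negative over bulk. The cluster's ratios were -1.27 and -1.67. The 453 gRNAs within 2 kb of the 5' end took 13.2%, 21.9% and 15.5%, and the 616 gRNAs 45 to 58 kb upstream took 9.92%, 3.49% and 2.03%. Among tested gRNAs the share called lower in GFP-negative than in bulk was 23.7% within 2 kb, 57.2% at 13 to 17 kb, 58.6% in the cluster and 71.2% at 45 to 58 kb. In GFP-medium the shares were 7.69%, 23.03%, 25.7% and 39.7%. Differences between these stretches were not tested.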

How the data were processed

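The values were raw counts per gRNA and library, as deposited by the authors; positions are mm10, per the submitters' processing notes, and whether intervals count from 0 or 1 is not stated. For the counting program, the sources used here name none. Populations and replicate numbers came from sample titles. The placeholder guide (1.09% to 23.5% of bulk counts) was left out.

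With edgeR 4.0.16 in R 4.3.3, gRNAs were kept by filterByExpr (minimum count 10), scaled by TMM and tested by the robust 2-sided quasi-likelihood F test over all 12 libraries with population as the only term. Tile sums were scaled by library totals, for tiles of at least 5 gRNAs. P-values were adjusted by Benjamini-Hochberg over all tested features at 0.05. The scripts were tested on simulated counts drawn from bulk proportions, which lack the uneven counts of the sorted libraries. That test therefore does not show how the fits behave on such counts. A population without counts was set to 3 counts per library for fold bounds, which cover the counting of reads only. Gene positions came from RefSeq (GRCm38.p6).

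Deviations of same-numbered libraries, from log2(CPM + 1), correlated at 0.105 to 0.270 in 12 pairs and different numbers at -0.149 to -0.0179 in 36. The labels give the number as that of the replicate, so numbers were taken to pair the libraries. Alternatives were other scalings, filters and tile widths, DESeq2 1.42.0, limma 3.58.1, the replicate block, and leaving out each library. A block for replicates 1 and 2 against 3 and 4, a grouping taken from the placeholder's share and named by no label, these pairs alone and the split by interval length were chosen after seeing the data.

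The gRNAs named were, per comparison and direction, those called (the 6 with the highest bulk mean CPM where more). Added to them were those separated above bulk (0), the highest in mean CPM per tile and sorted population and the 3 highest in bulk. The rest were deep-sequenced sites (0) and the 2 nearest each edge on either side. Members and lists were chosen with earlier results of these data known. Each gRNA's sequence was not analysed here.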

Additional observations from a re-analysis of the deposited data

Results flagged for a closer look

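In 27 of the 103 groups of 4 libraries checked for the named members and shares, 1 library stood far from the other 3 by Dixon's test of the gap over the group's range. Chance marks about 1 in 20 groups of normally distributed values, a rate that does not carry over to these sparse counts: in 14 of the 27 the other 3 libraries were at 0, and several members were named for being the most counted. Of the 27, 4 were in bulk, 11 in GFP-medium and 12 in GFP-negative, and none concerned the cluster's or a tile's share.

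In bulk, replicate 4 was low for chr8:43330566-43330587, at 998 CPM with the others at 1820 to 1971. Replicate 2 was high for chr8:43328282-43328303 at 1350.1 CPM, and replicate 1 was high for chr8:43333352-43333374 at 1093 CPM and for chr8:43333715-43333736 at 4003 CPM.

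In GFP-medium, replicate 3 was high for chr8:43330566-43330587 (354 CPM), chr8:43330264-43330286 (8.23), chr8:43332809-43332830 (1219), chr8:43330114-43330135 (979.8), chr8:43332190-43332212 (11346) and chr8:43331333-43331354 (5368). Replicate 2 was high for chr8:43333764-43333786 (11.2 CPM), chr8:43329776-43329798 (3.73) and chr8:43333709-43333731 (3095). Replicate 1 was high for chr8:43328784-43328806 (2525 CPM) and chr8:43328678-43328699 (1562).

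In GFP-negative, replicate 1 was high for chr8:43330570-43330592 (3.52 CPM), chr8:43328784-43328806 (10.6) and chr8:43328678-43328699 (9824). Replicate 2 was high for chr8:43329406-43329427 (8.20 CPM), chr8:43330293-43330315 (6.15), chr8:43329776-43329798 (195), chr8:43328282-43328303 (316) and chr8:43331333-43331354 (1015). Replicate 3 was high for chr8:43332808-43332830 (3.95 CPM) and chr8:43331629-43331650 (474), and replicate 4 for chr8:43328800-43328822 (1413) and chr8:43328830-43328852 (234). Values under 12 CPM are counts of 1 to 4 reads. Apart from 1 count of chr8:43331629-43331650 in replicate 2, the other 3 GFP-negative libraries held no count of these members.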

How the results depend on the processing

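The 3 log2 ratios of the cluster's share stayed below 0 under every alternative run. Without the GFP-targeting gRNAs the ratio in GFP-negative against bulk was -1.29, and without the most counted member of each library -2.01. Cluster tiles lower in GFP-negative than in bulk numbered 1 in the fit as reported, beside 5 of all 41. With TMM they numbered 0 beside 1 of 41, and without the GFP-targeting gRNAs in the totals 0 beside 3. Tiles of 2 kb gave 2 beside 10 of 22, DESeq2 3 beside 13 of 41 and the replicate block 5 beside 17. With replicates 1 and 2 against 3 and 4 as a block (the pair block) it was 3 beside 8. Within replicates 3 and 4 it was 0 beside 1, and with each library left out 0 to 1 beside 3 to 10. Cluster tiles lower in GFP-medium than in bulk numbered 1 with DESeq2, beside 4 of all 41, and 2 with the replicate block, beside 3. The pair block gave 1 beside 1 of all 41, and leaving out each library 0 to 1 beside 0 to 4. With 500-bp tiles 1 of the cluster's 12 was lower in GFP-negative than in GFP-medium, beside 11 of all 82.

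Members lower in GFP-negative than in bulk numbered 58 with limma-voom, beside 271 of all 1342 gRNAs. With each library left out they numbered 131 to 166, beside 600 to 792 over all tested gRNAs. DESeq2 called 1 member higher, beside 58 of all gRNAs tested. Members lower in GFP-medium than in bulk numbered 28 with limma-voom, beside 119 of all 1342 gRNAs, and 89 with the replicate block, beside 391. Without the filter it was 111 beside 564 of 1718. Within replicates 3 and 4 it was 0 beside 0 of 1321, and with each library left out 58 to 108 beside 257 to 482. Members higher in GFP-negative than in GFP-medium numbered 8 with TMMwsp, beside 66 of all 1342 gRNAs, and 8 with DESeq2, beside 45. The pair block gave 1 beside 12, limma-voom 0 beside 15, and these populations alone 0 beside 2 of 375. With the replicate block and within either pair of replicates, 0 of all tested gRNAs were higher. With each library left out it was 0 to 6 beside 0 to 55. Members lower there numbered 29 with the pair block, beside 127 of all 1342 gRNAs, and 91 with limma-voom, beside 412. With these populations alone, with the replicate block and within either pair of replicates, 0 of all tested gRNAs were lower. With each library left out it was 0 to 60 beside 0 to 318. The cause of these changes was not tested. The replicate block ended the calls between the sorted populations of all named gRNAs and changed no other call beyond those given.

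Reversals were confined to GFP-negative against GFP-medium. The lowest tile turned to 0.29 with TMM, 0.0964 without the GFP-targeting gRNAs in the totals and 0.025 within replicates 3 and 4, and ran from -0.65 to 0.13 when each library was left out. The tile at 43329013 turned to -0.030 within replicates 1 and 2 and ran from -0.23 to 0.64 with each library left out. The tile at 43332013 turned to 0.0954 with TMM, 0.081 with limma-voom and 0.90 within replicates 1 and 2, and ran from -0.76 to 0.76 with each library left out. None of these tile differences had passed. Among gRNAs, chr8:43329406-43329427 turned to 1.46 within replicates 1 and 2 and chr8:43329776-43329798 to -1.64 without negative replicate 2, its range with each library left out being -1.64 to 6.92. No value was had where a gRNA lacked counts in both populations: chr8:43328800-43328822 and chr8:43328830-43328852 within replicates 1 and 2 or without negative replicate 4, and chr8:43329776-43329798 within replicates 3 and 4.

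Bulk libraries were the shallowest, so members rare in bulk were not tested, and 385 members without any count give no value. Sorted counts rest on few gRNAs per library, which limits what a mean over 4 replicates can show.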
